A study of Rattus norvegicus with 12 samples.

Results

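Cadherins, tight junction proteins and the transcription factors of epithelial-mesenchymal transition (EMT) were examined in WB-F344 and WB311 rat liver cells exposed to vehicle or rapamycin. The genes were E-cadherin (Cdh1), N-cadherin (Cdh2), occludin (Ocln), claudin-1 (Cldn1), Tjp1, Epcam, Snai1, Snai2, Twist1 and Zeb1. Every probe set annotated with the symbol of 1 of these 10 genes, or with an older alias of it, was taken. This gave 17 probe sets of 9 genes, out of 31042 probe sets standing for 14217 genes, and no probe set carried the symbol of Snai2 in the annotation used here.

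WB-F344 is a diploid epithelial line from the liver of an adult male Fischer rat, and is labelled as sensitive to rapamycin and not tumorigenic, with a doubling time of 42 hr. WB311 arose spontaneously from WB-F344 and is labelled as resistant and tumorigenic, with a doubling time of 15.5 hr. Each line was given 50 nM rapamycin, an inhibitor of mTOR Complex 1, or its DMSO vehicle for 24 hr, with 3 plates in each of the 4 groups. RNA from each plate was hybridized to its own array, so every line effect below compares a single pair of lines, and in cultures measured in bulk fewer expressing cells and less RNA per cell cannot be told apart.

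Cadherins join neighboring epithelial cells at adherens junctions through calcium-dependent binding outside the cell and catenins inside it. Occludin and the claudins span the membrane at tight junctions, where Tjp1 (also called ZO-1) links them to actin. In EMT, Snai1, Snai2, Twist1 and Zeb1 repress epithelial genes such as Cdh1, in most cases by binding E-box sequences in their promoters, while N-cadherin is typical of the mesenchymal state.

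The E-box most often tied to the Snail and Zeb factors reads CACCTG on a DNA strand and CAGGTG on the opposite strand, and is a form of the wider E-box CANNTG. The 250 bases upstream of the annotated start (RefSeq, build GRCr8) were searched on both strands in the 7 of the 10 genes that had such a window. Ocln, Zeb1, Epcam and Snai1 held the box and Cldn1, Twist1 and Tjp1 did not. Of 33469 such windows over all genes, 15.9% held it. A match describes letters only and is no binding site. The windows of 3 genes that held it are shown, of Ocln as a junction gene with signal, of Zeb1 as a factor of this class with signal in both lines, and of Epcam as an epithelial gene with low values on every array. Capitals mark the box, and each window ends at the base before the start.
Ocln, chr2:33441199-33441448, minus strand: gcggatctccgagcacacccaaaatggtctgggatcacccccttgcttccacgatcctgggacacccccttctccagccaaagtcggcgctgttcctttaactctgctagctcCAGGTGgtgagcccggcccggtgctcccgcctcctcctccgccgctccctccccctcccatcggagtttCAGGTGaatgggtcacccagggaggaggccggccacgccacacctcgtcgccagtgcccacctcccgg
Zeb1, chr17:56810654-56810903, minus strand: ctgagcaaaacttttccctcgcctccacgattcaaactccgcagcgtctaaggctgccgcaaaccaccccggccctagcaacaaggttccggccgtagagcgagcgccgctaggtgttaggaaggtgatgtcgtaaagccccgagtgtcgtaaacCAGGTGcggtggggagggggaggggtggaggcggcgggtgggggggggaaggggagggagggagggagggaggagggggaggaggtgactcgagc
Epcam, chr6:12649679-12649928, minus strand: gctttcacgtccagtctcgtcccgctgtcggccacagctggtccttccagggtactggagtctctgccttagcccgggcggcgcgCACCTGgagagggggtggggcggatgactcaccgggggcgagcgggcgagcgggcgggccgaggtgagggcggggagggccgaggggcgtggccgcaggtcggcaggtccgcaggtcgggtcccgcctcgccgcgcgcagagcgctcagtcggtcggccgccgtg
Ocln had the box at 137 to 132 and at 68 to 63 bases upstream, Zeb1 at 95 to 90 and Epcam at 165 to 160. In Ocln and Zeb1 it read CACCTG on the opposite strand and in Epcam on the strand of the gene.

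The deposited values were intensities after Robust Multiarray Average normalization, on a linear scale, and their log2 was used for the fits. Testing was restricted to probe sets averaging 100 or more in a group of the comparison, which is the study's limit. A call required a fold of 1.2 or more and a Benjamini-Hochberg adjusted p below 0.05 from limma, adjusted over every probe set tested. Array medians lay between 59.5 and 62.9. The WB-F344 plates numbered 2 differed from the rest of their line. The 3′ signal of Gapdh exceeded the 5′ signal by 0.34 (vehicle) and 0.17 (rapamycin) on the log2 scale there, where the 4 remaining WB-F344 plates had -0.12 to -0.043, and that of beta-actin by 1.04 and 0.62, where they had 0.21 to 0.25. Member results whose call changes without these plates are given both ways. On the 6 WB311 arrays the beta-actin difference was 0.38 to 0.49 and that of Gapdh -0.11 to -0.042, so that the beta-actin values also moved with the line, and their part in the line differences was not tested.

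Of the 17 probe sets, 8 of 5 genes reached 100 in at least 1 group, and 9 did not. The named epithelial adhesion genes were largely without signal. Both probe sets of Cdh1 lay between 12.2 and 22.7, the 3 of Cldn1 between 7.78 and 36.3 and that of Epcam, an epithelial adhesion molecule, between 13.9 and 16.0 over the 12 arrays. None of these genes was tested, in either line or treatment, so nothing can be said on its response. A loss of E-cadherin between the lines could not have been measured from these levels, since WB-F344 itself, labelled as epithelial, had an average of 17.9 ± 1.24 (SD, n = 3) at the brighter Cdh1 probe set with vehicle. No detection call was used here, so an intensity under 100 is a low value and not a proof of absence.

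**Figure D1:**
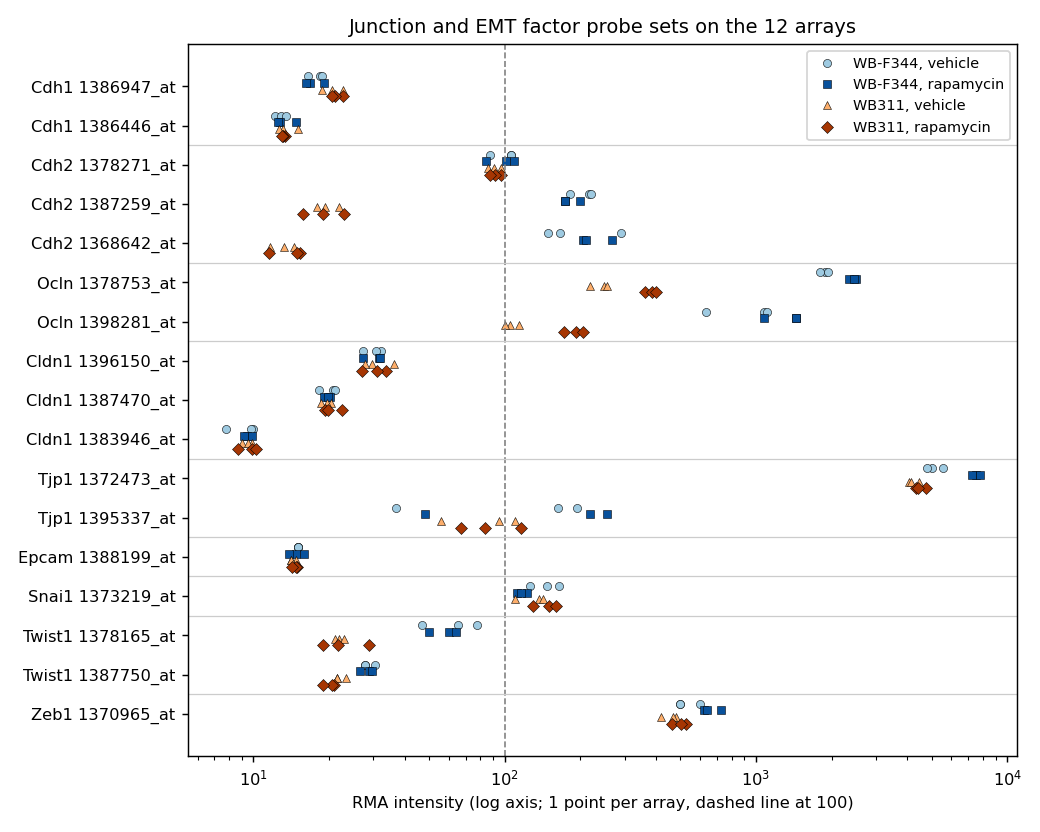
RMA intensity (log axis) of the 17 probe sets on each of the 12 arrays, 1 point per array, by line and treatment, with a dashed line at the limit of 100. The lines lie furthest apart at Ocln and 2 probe sets of Cdh2. The brighter Tjp1 probe set and Zeb1 have signal above 400 on every array, and Cdh1, Cldn1 and Epcam stay under 37 on every array.

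With vehicle, the member junction genes that were called were lower in WB311 than in WB-F344, though not at every probe set. Other junction genes, taken from lists and given below, went in both directions. Of the 8 probe sets tested, 5 were called and all 5 were lower in WB311, standing for Ocln, Cdh2 and Tjp1. Over all probe sets tested, 55.5% were called in this comparison and 27.9% were called lower, so a call by itself is common here. Of the 8, 5 averaged 100 or more in both lines, of which 3 were called lower, and the remaining 3, both of Cdh2 and the dimmer of Tjp1, passed through WB-F344 only.

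Occludin had signal in both lines. At the probe set 1378753_at the WB-F344 plates with vehicle read 1882, 1803 and 1939, and those of WB311 read 219, 248 and 256. The lines were far apart on every plate. The log2 difference was -2.96 (SE 0.071, adjusted p = 5.25e-11), or 7.80-fold lower in WB311. The second probe set, 1398281_at, read 1075, 635 and 1109 in WB-F344 and 105, 114 and 99.9 in WB311, with a log2 difference of -3.10 (SE 0.20, adjusted p = 1.39e-07). Plate 2 was the low WB-F344 value there, and both probe sets were called in all 23 alternative settings, with log2 differences of -3.36 to -2.90.

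N-cadherin, the cadherin that mesenchymal cells usually carry, was also lower in the tumorigenic line. At 1387259_at the WB-F344 plates with vehicle read 182, 217 and 222, and the WB311 plates 22.0, 19.3 and 18.0. At 1368642_at they read 166, 290.0 and 148 against 11.6, 13.2 and 14.5. The log2 differences were -3.39 (SE 0.14) and -3.88 (SE 0.23), with adjusted p of 3.41e-09 and 6.99e-08. These sizes are rough, because WB311 lay under 100, and the probe sets were tested only through the line in which they are high. The third probe set of Cdh2, 1378271_at, did not separate the lines. It averaged 99.8 in WB-F344 and 91.3 in WB311 with vehicle, just under the limit, and was not tested.

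Tjp1, the scaffold beneath the tight junction, had high signal in both lines. At 1372473_at WB-F344 with vehicle read 5006, 5531 and 4791, and WB311 read 4439, 4051 and 4141. The groups did not overlap and the log2 difference was -0.28 (SE 0.070, adjusted p = 0.00505), which is a 1.21-fold difference. It fell below the 1.2-fold limit without the WB-F344 vehicle plate 2 (-0.22), without the WB311 vehicle plate 2 (-0.25) and without both WB-F344 plates numbered 2 (-0.22), and its adjusted p was 0.0621 with unequal variances in the methods' t-test. The dimmer Tjp1 probe set, 1395337_at, read 194, 37.1 and 164 in WB-F344 and 56.1, 110.4 and 94.99 in WB311. Its difference of -0.33 was not called (adjusted p = 0.697), while without the WB-F344 plates numbered 2 it was -1.09 (adjusted p = 0.00489).

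The EMT factors with signal differed little between the vehicle groups. Zeb1, a zinc finger repressor, read 499, 601 and 501 in WB-F344 and 479, 418 and 466 in WB311. The groups did not overlap, and the log2 difference of -0.23 (95% confidence interval -0.44 to -0.018) was not called (adjusted p = 0.0574), except without the WB-F344 vehicle plate 1 (-0.27, adjusted p = 0.0478). Snai1, the first of the Snail repressors, read 126, 165 and 147 against 137, 110.1 and 142, which overlap. Its difference was -0.17 (-0.44 to 0.099, adjusted p = 0.245). Twist1, a basic helix-loop-helix factor, was under 100 everywhere and was not tested. At 1378165_at it read 65.3, 77.6 and 46.9 in WB-F344 and 21.1, 21.9 and 23.0 in WB311, and at 1387750_at 27.8 to 30.5 against 21.5 to 23.3, the WB311 plates being lower at both.

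**Figure D2:**
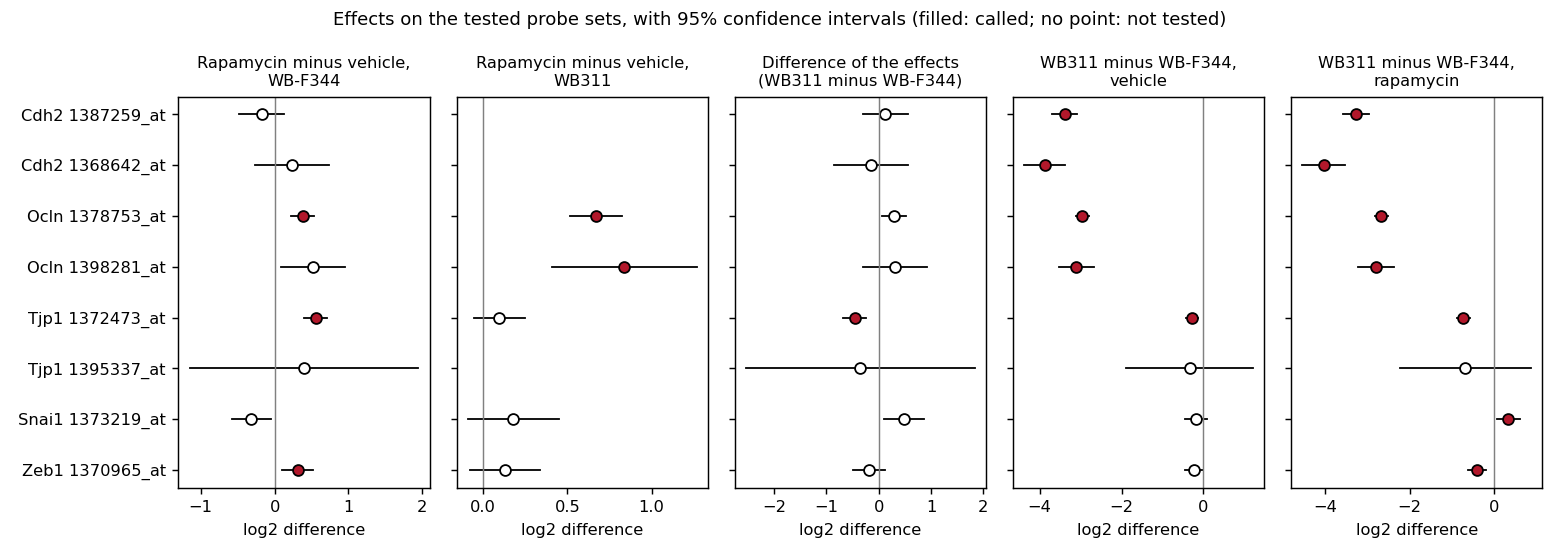
log2 differences of the 8 probe sets that reached 100 in a group, with 95% confidence intervals, in 5 comparisons; filled points were called and a missing point was not tested. Ocln and Cdh2 lie between -4.03 and -2.67 in the line comparisons, and Tjp1 at 1372473_at is the filled point in the difference of the effects.

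Rapamycin was followed by higher occludin in both lines. In WB-F344, 3 of 8 probe sets tested were called, those of Ocln, Tjp1 and Zeb1, and all 3 were higher with rapamycin. Over all probe sets tested, 22.6% were called and 7.58% were called higher. The balance of calls depends on scaling, with 1005 higher and 1995 lower as deposited and 1416 higher and 1516 lower after cyclic loess. In WB311, 2 of 5 were called, both of Ocln and both higher, where 3.72% of all probe sets tested were called and 1.87% were called higher.

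At 1378753_at, Ocln in WB-F344 read 2503, 2351 and 2454 with rapamycin, each above the vehicle plates. The mean rose from 1875 ± 68.5 to 2436 ± 77.7 (SD, n = 3), a log2 change of 0.38 (SE 0.070, adjusted p = 0.00259), which was called in all 24 settings. In WB311 it read 363, 386 and 400.3, again above every vehicle plate. The mean went from 241 ± 19.6 to 383 ± 18.9, a log2 change of 0.67 (SE 0.070, adjusted p = 0.00121). This call ended only with unequal variances in the methods' t-test (adjusted p = 0.0787), under which 2 probe sets of the whole table were called higher. Even with rapamycin, the highest WB311 plate stayed far below the lowest WB-F344 plate with vehicle.

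The second Ocln probe set moved the same way, with a wider spread between the WB-F344 plates. At 1398281_at WB-F344 with rapamycin read 1449, 1078 and 1443, and plate 2 with rapamycin lay below vehicle plate 3. The log2 change of 0.52 (SE 0.20) was not called (adjusted p = 0.0714). With the plate number as a block within lines it was called (SE 0.091, adjusted p = 0.00216), as it was with the fold limit applied before the adjustment (adjusted p = 0.0287), without both plates numbered 2 (0.40, adjusted p = 0.00528), without vehicle plate 3 (0.67, adjusted p = 0.0454) and without rapamycin plate 2 (0.67, adjusted p = 0.0343). WB311 with rapamycin read 172, 193 and 206, above every vehicle plate, and the log2 change was 0.84 (SE 0.20, adjusted p = 0.0392). The WB311 call was kept in 13 of 24 settings. It was lost without any 1 of the 6 WB311 arrays (0.78 to 0.91, adjusted p = 0.0857 to 0.144). Without WB-F344 rapamycin plate 1 or 3 it was lost as well (adjusted p = 0.0535 and 0.0525). The same held with no intensity filter (0.0713), after cyclic loess (0.0522) and with unequal variances in the methods' t-test (0.0673).

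The rise of Ocln was not shown to differ between the lines. The effect in WB311 less that in WB-F344 was 0.29 (95% confidence interval 0.072 to 0.52, adjusted p = 0.0937) and 0.31 (-0.30 to 0.92, adjusted p = 0.561). The first was called with the block within lines (adjusted p = 0.0229) and with the fold limit applied first (adjusted p = 0.0313), and without the plates numbered 2 the second was called (0.43, adjusted p = 0.0248).

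Tjp1 rose in WB-F344 and was not called in WB311, and this difference was itself called. At 1372473_at WB-F344 with rapamycin read 7482, 7772 and 7272, all above the vehicle plates. The mean rose from 5109.6 ± 381 to 7508 ± 251, a log2 change of 0.56 (SE 0.069, adjusted p = 0.000245), which was called in 23 of 24 settings and not with unequal variances in the methods' t-test (adjusted p = 0.076). WB311 with rapamycin read 4332, 4748 and 4419, overlapping its vehicle plates. Its change was 0.096 (-0.057 to 0.25, adjusted p = 0.541). The difference of the effects was -0.46 (SE 0.099, 95% confidence interval -0.68 to -0.24, adjusted p = 0.0136), called in all 21 settings that could be run. It was the 1 member probe set called of 8 in this comparison, where 10.7% of all probe sets tested were called and 3.33% were called lower.

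The dimmer Tjp1 probe set varied more between plates than between treatments. At 1395337_at WB-F344 with rapamycin read 255, 48.4 and 219, with plate 2 far below the others as with vehicle, and WB311 read 83.9, 67.0 and 116. The WB-F344 change of 0.40 had a 95% confidence interval of -1.15 to 1.95 (adjusted p = 0.716).

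**Figure D3:**
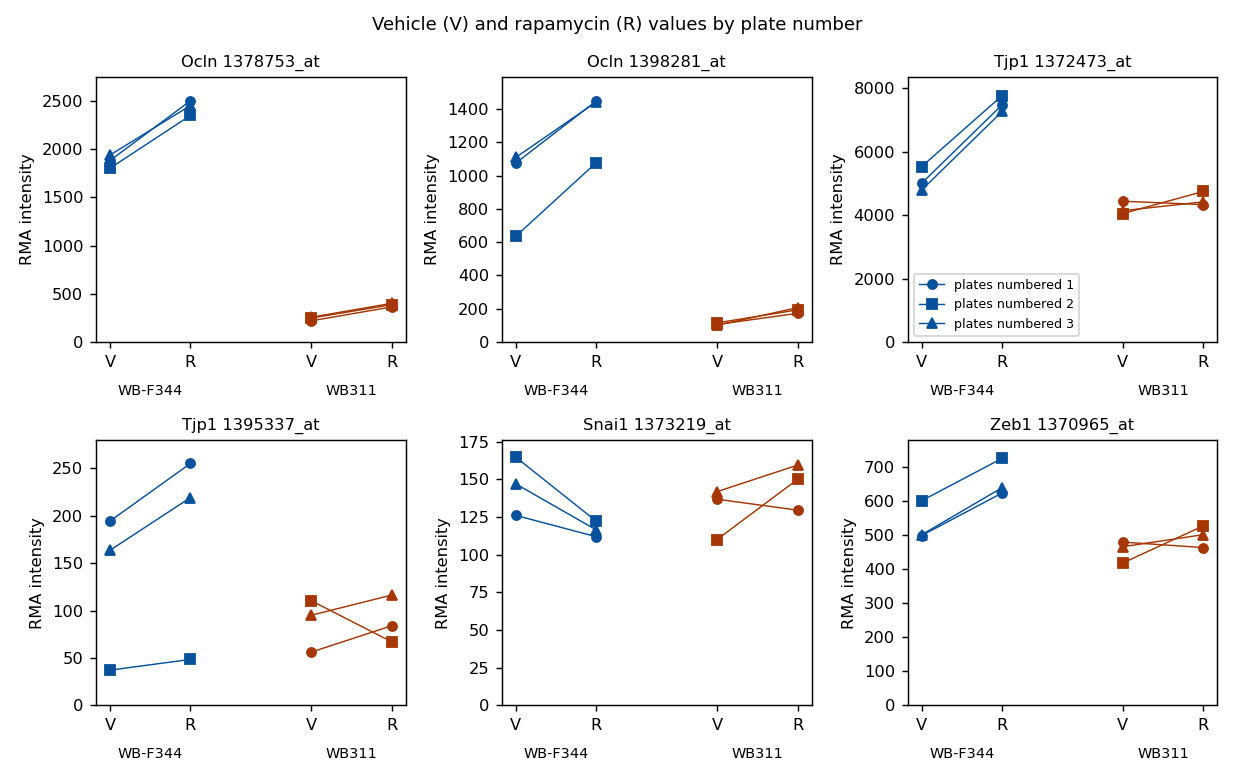
RMA intensity with vehicle (V) and rapamycin (R) by plate number, for the probe sets of Ocln, Tjp1, Zeb1 and Snai1. Lines join plates of the same number, which are not known to be pairs, although in WB-F344 the deviations of same-numbered plates correlated. At 1372473_at the 3 WB-F344 plates with rapamycin lie between 7272 and 7772, above every other plate, and at 1395337_at and 1398281_at the WB-F344 plates numbered 2 are the lowest of their groups.

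Zeb1 in WB-F344 read 624, 726 and 639 with rapamycin, above every vehicle plate. The mean went from 533 ± 58.4 to 663 ± 54.8, a log2 change of 0.32 (SE 0.095, adjusted p = 0.0308). It was called in 15 of 24 settings, and not without vehicle plate 1 (adjusted p = 0.0936), vehicle plate 3 (0.102), rapamycin plate 2 (0.0884) or rapamycin plate 3 (0.0565), with no intensity filter (0.0605), with median centring (0.0735), with only the groups compared (0.118) and in the methods' t-test with equal (0.18) or unequal variances (0.213). In WB311 the plates with rapamycin read 463, 527 and 501, overlapping vehicle, and the change was 0.13 (-0.079 to 0.34, adjusted p = 0.545). The difference of the effects of -0.19 (-0.48 to 0.11) was not called (adjusted p = 0.463).

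Snai1 in WB-F344 read 112, 122 and 116 with rapamycin, each below the vehicle plates. The log2 change was -0.31 (SE 0.12, 95% confidence interval -0.58 to -0.043) and was not called (adjusted p = 0.0832). It was called with the block within lines (adjusted p = 0.0275), with the fold limit applied first (adjusted p = 0.0344) and without vehicle plate 1 (-0.41, adjusted p = 0.0358). WB311 read 129.6, 150.0 and 159, overlapping its vehicle plates, with a change of 0.18 (-0.090 to 0.45, adjusted p = 0.513). The difference of the effects was 0.49 (0.11 to 0.87, adjusted p = 0.104), and was called with the block within lines (adjusted p = 0.0349) and with the fold limit applied first (adjusted p = 0.0351).

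Cdh2 showed no called response. In WB-F344 with rapamycin 1387259_at read 174, 175 and 199.9, a log2 change of -0.18 (-0.48 to 0.13, adjusted p = 0.382). The other tested probe set, 1368642_at, read 205, 269 and 210.1, a change of 0.23 (-0.26 to 0.73, adjusted p = 0.487), so the probe sets differ in sign. Vehicle plate 2 was the highest value at 1368642_at, and without it the change was 0.53 (adjusted p = 0.0236), or 0.41 without both plates numbered 2 (adjusted p = 0.0383). In WB311 both stayed between 11.6 and 23.0 and were not tested. Cdh1, Cldn1, Epcam and Twist1 were not tested for either response.

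With rapamycin in both lines, 7 of the 8 probe sets tested were called, 6 of them lower in WB311 and 1 higher, where 58.8% of all probe sets tested were called, 25.8% lower and 33% higher. This comparison shares its arrays with those above. The log2 differences were -2.67 and -2.79 for Ocln, -3.26 and -4.03 for Cdh2, -0.74 for Tjp1 at 1372473_at (SE 0.070, adjusted p = 3.24e-06) and -0.41 for Zeb1 (SE 0.095, adjusted p = 0.00274). These were called in all 23 settings. Snai1 was the exception, 0.32 higher in WB311 (SE 0.12, adjusted p = 0.0392), and this call was lost in 8 of 23 settings (adjusted p up to 0.136), among them without WB-F344 vehicle plate 3, WB-F344 rapamycin plate 1 or 3 or WB311 rapamycin plate 2 or 3. The dimmer Tjp1 probe set differed by -0.68 and was not called (adjusted p = 0.416), while without the WB-F344 plates numbered 2 it was -1.45 (adjusted p = 0.000774). Both probe sets of Cdh2 were again under 100 in WB311.

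The other genes of these junctions, taken from lists, did not all follow Ocln and Cdh2. Over 9 lists of other adhesion, junction, EMT, epithelial and mesenchymal genes, 20 genes were called higher in WB311 with vehicle and 21 lower, of 58 tested, which is 34.5% and 36.2% beside 27.6% and 27.9% over all probe sets. Of these, 6 of the higher and 3 of the lower genes averaged under 100 in one of the lines, and the size of such a difference is rough. With rapamycin in both lines 23 were higher (40.4%) and 19 lower (33.3%) of 57 tested, beside 33% and 25.8% over all probe sets. Here 7 of the higher and 2 of the lower genes averaged under 100 in a line. Here and below, each list gene counts by its probe set of highest mean, and the shares over all probe sets count every one tested. The shares set side by side are therefore not like for like. Of 2 other cadherins tested, P-cadherin (Cdh3) was higher in WB311 at 2103 ± 77.2 against 68.4 ± 9.69 in WB-F344 (log2 difference 4.95, SE 0.13, adjusted p = 1.37e-10), under the limit in WB-F344, and the mesenchymal cadherin Cdh11 was lower at 389 ± 48.8 against 760.0 ± 54.3 (-0.97, SE 0.11). Cdh3 and Cdh11 were thus above the limit in WB311, where Cdh1 stayed under 23 on every array and the group averages of Cdh2 with vehicle were under the limit on all 3 of its probe sets.

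At tight junctions, 16 other proteins were tested, of which 4 were higher and 3 lower in WB311. The junctional adhesion molecule F11r (JAM-A) averaged 50.9 ± 3.42 in WB-F344 and 940 ± 100.5 in WB311 (log2 difference 4.20, adjusted p = 2.48e-09), with WB-F344 under 100, while its relative Jam3 averaged 1099 ± 39.6 and 304 ± 9.10 (-1.85, adjusted p = 4.34e-10). The plaque protein cingulin (Cgn) was 1.79 higher, with WB-F344 under 100. Of the other claudins, 13 had a probe set and 2 were tested, of which Cldn12 was 0.56 higher in WB311 and the other was not called.

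Among 10 catenins, nectins and adherens junction adaptors tested, 3 were higher and 3 lower. Afadin (Afdn), which binds nectins to actin, was 1.98 higher, alpha-catenin (Ctnna1) 0.43 higher, and vinculin (Vcl) was lower (-1.03), at 3241 ± 177 in WB311 against 6618 ± 108. Of 4 desmosome genes tested, plakophilin 1 (Pkp1, 2.16), desmoplakin (Dsp, 1.25) and Pkp4 (1.13) were higher, and Pkp2 (-0.54) was lower. Pkp1 averaged 41.8 in WB-F344 and 185 in WB311, so that it was tested only through the line in which it is high.

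The lists of EMT and epithelial regulators were small once the limit of 100 was applied. Of 5 other EMT factors tested, Zeb2 was 0.70 higher in WB311 and Prrx2 (-3.42) and Tcf4 (-1.03) were lower. All 3 epithelial regulators tested were higher, Klf4 by 3.12, Klf5 by 1.13 and Foxa2 by 0.74. Of 6 epithelial products tested, 4 were higher and 1 lower. Keratin 18 (Krt18) was 3.44 higher, from 23.0 ± 4.80 to 247 ± 20.7, the protease inhibitor Spint2 0.96 higher, and keratin 7 (Krt7) lower (-6.18), from 5534 ± 642 to 76.5 ± 13.4. Krt18 in WB-F344 and Krt7 in WB311 were under 100, so these sizes are rough. All 10 mesenchymal products tested were lower in WB311, where 27.9% of all probe sets tested were called lower. Those with the smallest adjusted p were the collagens Col1a2 (-4.20), Col3a1 (-4.75) and Col1a1 (-5.98). Tagln averaged 76.9 and Ncam1 42.8 in WB311, so that both were tested only through WB-F344. The summed intensity of the mesenchymal list over 12 genes was 84962 to 95453 in WB-F344 and 27597 to 28617 in WB311, with vehicle. The sum over 11 epithelial products was 9249 to 10783 and 8797 to 9158. Such sums are carried by the brightest probe sets, and in the epithelial one Krt7 was lower while Krt8 (2987 ± 202 against 6103 ± 211) and Spint2 were higher.

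**Figure D4:**
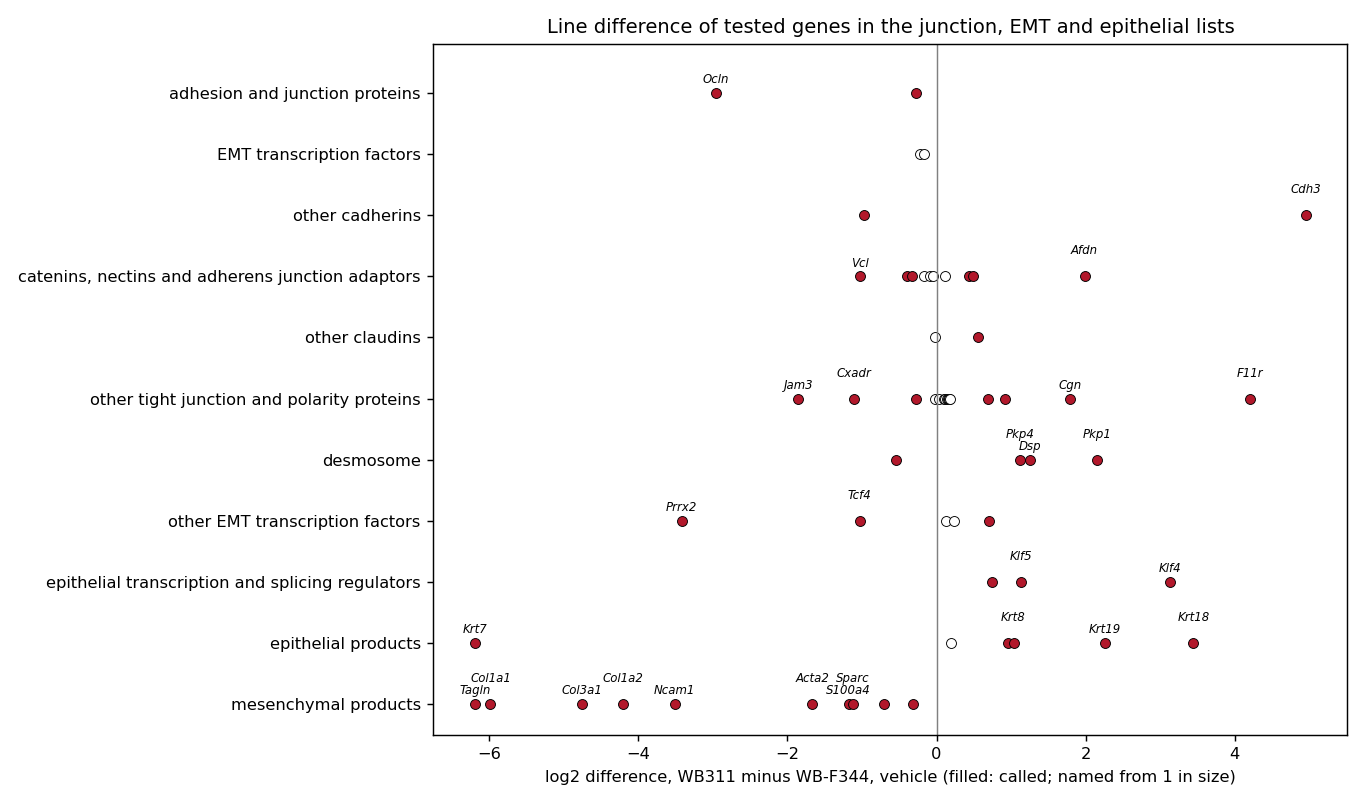
log2 difference, WB311 minus WB-F344 with vehicle, of each tested gene by list, each gene by its probe set of highest mean; filled points were called, and genes are named from a difference of 1 on the log2 scale. Cdh3 and F11r lie beyond 4 on the right, and Tagln, Krt7 and the collagens on the left. Cdh2 is missing because the probe set of highest mean over the 12 arrays, 1378271_at, did not reach 100.

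With rapamycin in WB-F344, 6 of 52 list genes tested were higher (11.5%) and 14 lower (26.9%), beside 7.58% and 15% over all probe sets. The count of lower genes was 4 in the methods' t-test with equal variances, 0 with unequal variances and 8 with only the groups compared, and that of higher genes was 2 with unequal variances. At adherens junctions Ctnna1 rose by 0.34 on the log2 scale (adjusted p = 0.000408) and p120-catenin (Ctnnd1) by 0.62 (adjusted p = 0.00257), and Nectin3 fell by 0.57 (adjusted p = 0.000306), with 3 of 10 higher and 3 lower. At tight junctions the polarity protein Pard6b rose by 0.58 and Jam3 by 0.47, and the scaffold Magi3 fell by 1.14, from 571 ± 103 to 259 ± 44.1. Of 14 tight junction proteins tested these 3 were called. Desmoplakin (-0.55) and Pkp2 (-0.57) fell, as did Cdh11 (-0.53), the EMT factors Prrx2 (-0.79) and Tcf3 (-0.51), Klf5 (-0.55) and keratin 8 (Krt8, -0.37), while Klf4 rose by 0.45. Of 10 mesenchymal products 3 fell, Col3a1 (-0.90), Ncam1 (-0.84) and Col1a1 (-0.50, not called after cyclic loess at an adjusted p of 0.0696). Cyclic loess also ended the calls of 2 adherens junction genes, and median centring that of vinculin.

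In WB311, 4 of 56 list genes tested were higher with rapamycin (7.14%) and none lower, beside 1.87% and 1.85% over all probe sets. These were Pard6b (0.35, adjusted p = 0.0296, and 0.0635 with median centring), Krt7 (0.89, from 76.5 ± 13.4 with vehicle, under the limit, to 141 ± 16.9), fibronectin (Fn1, 0.38) and S100a4 (0.30). The count of higher genes was 2 without WB311 vehicle plate 1 or 2, without WB311 rapamycin plate 2 or 3 and with no intensity filter, and 0 with unequal variances in the methods' t-test. It was 7 without WB-F344 vehicle plate 2, 8 with the fold limit applied before the adjustment, and 9 with the block within lines, without the WB-F344 plates numbered 2 and with only the groups compared, where 2 were lower. Between the lines, 14 of 58 list genes (24.1%) had a higher change in WB311, beside 7.34% over all probe sets. A lower change was called for 2 (3.45%), Ctnna1 and Jam3, beside 3.33%. The higher count was 9 without WB-F344 rapamycin plate 1, WB311 vehicle plate 1 or WB311 rapamycin plate 2, 7 without WB311 vehicle plate 2 and 6 without WB311 rapamycin plate 3, and the lower count was 4 without the WB-F344 plates numbered 2 and 1 with no intensity filter. Tjp1, a member, also had a lower change in WB311. Jam3 averaged 304 ± 9.10 with vehicle and 302 ± 8.44 with rapamycin in WB311.

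Markers of other cell types were checked as lists. Of 7 hepatocyte markers only Ttr reached 100, at group averages of 96.9 to 103.4, and albumin (Alb) averaged 31.9 to 33.5. Of 7 endothelial markers only Tek reached 100, in WB311 (995 ± 68.8 with vehicle), and the defining genes Pecam1 and Kdr stayed under 20 in every group average. Of 7 leukocyte markers only Cd14 did, and it rose with rapamycin in WB-F344 by 0.99 on the log2 scale (adjusted p = 0.000101), while Ptprc averaged 21.6 to 22.9. The summed leukocyte signal was 646 to 772 with vehicle and 1131 to 1392 with rapamycin in WB-F344, and most of it was Cd14.

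The genes whose log2 intensity followed a member most closely over the 12 arrays are given as a description. For Ocln these were Ccn1 (r = 0.9986), Ptgis (0.9977) and Dusp1 (0.9976) among 8659 genes compared, of which 1310 had r above 0.9, and the gap between the lines is part of each of these values. Within the 6 arrays of a line, r with Ocln was 0.987 in WB-F344 and 0.97 in WB311 for Dusp1, 0.884 and 0.995 for Ccn1 and 0.904 and 0.955 for Ptgis. For Tjp1 they were Etv5 (0.9899), Rnf144b (0.9864) and Egr2 (0.9844), with 240 genes above 0.9. Within WB-F344 these were at 0.999, 0.983 and 0.984 and within WB311 at 0.741, 0.677 and 0.591. For Twist1, which was under 100, they were Bcr (0.978), Sfxn4 (0.9744) and Grb10 (0.9707), with 1145 genes above 0.9. Within WB-F344 these were at 0.797, 0.835 and 0.621 and within WB311 at 0.798, 0.471 and 0.746. The members taken had the largest range of group averages at their probe set of highest mean, which for Cdh2 did not separate the lines. The arrays of a line and treatment share their group in every such correlation, and 12 arrays from 4 groups are not 12 independent conditions.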

How the data were processed

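Triplicate plates of WB-F344 and WB311 cells, given vehicle or 50 nM rapamycin for 24 hr, were profiled on 12 Affymetrix Rat Genome 230 2.0 arrays, 1 per plate. Each deposited value is a linear-scale intensity, which the authors obtained by Robust Multiarray Average with a version not given in the sources used here. Their log2 was taken here. The 57 array controls were left out of the tests. The annotation gave a single symbol for 20826 probe sets, several for 436 and none for 9780, and 20758 of the single-symbol identifiers were found in RefSeq. All value columns matched a sample, with 0 left over.

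The 12 arrays were fitted as 4 groups in R 4.3.3 with limma 3.58.1 (statmod 1.5.0), with moderated variances over the probe sets tested. A probe set was tested at a group average of at least 100 in a group compared, and called at a Benjamini-Hochberg adjusted p under 0.05 over all probe sets tested and a fold of at least 1.2. These limits are the study's. Its methods apply the fold limit first and use a two-sample t-test, both run as alternatives, along with no filter, a limit of 50, cyclic loess, median centring, only the groups compared, trend and robust variances, replicate blocks, each array left out and the WB-F344 plates numbered 2 left out. The fits were also run on simulated data, with independent noise and the same spread in all 4 groups for each probe set. The wider WB-F344 spread and the shared deviation of its plates numbered 2 were not simulated. Nothing states that plates were separate cultures, so p-values measure the spread between plates, and 3 arrays per group limit the precision. That spread was pooled over both lines for each probe set, although the lines differed in it. Within groups, the median SD of log2 intensity was 0.154 (WB-F344, vehicle), 0.13 (WB-F344, rapamycin), 0.0782 (WB311, vehicle) and 0.0642 (WB311, rapamycin).

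Plate numbers were checked as pairs. The deviations of same-numbered vehicle and rapamycin plates correlated at 0.676, 0.871 and 0.561 in WB-F344. Plates 1 and 3 crossed at 0.605 and 0.581, above the 0.561 of the plates numbered 3. The numbers are therefore not known to pair these plates. In WB311 the same-numbered plates correlated at -0.0569, -0.000258 and -0.139, and between the lines at -0.265 to 0.198. The fit without a block is reported, and the value with a block within lines is given where it changes a call.

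Members and lists were chosen with earlier results of these data known. All members are named, and up to 3 called genes of smallest adjusted p per list and comparison, each gene by the probe set of highest mean over the 12 arrays. Those that this rule selects between the lines with rapamycin are given as counts only. Pkp2, Krt8, Tagln and Ncam1 between the lines and vinculin with rapamycin in WB-F344 lie beyond this rule. So do Cgn and Sparc in the difference of the effects, and all of these were named after their values were seen. Of the 153 list genes, members included, 130 had a probe set. Promoter windows are from RefSeq (GRCr8). No detection calls were used.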

Additional observations from a re-analysis of the deposited data

Results flagged for a closer look

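Genes whose response to rapamycin differed between the lines, by limma's contrast of the effects, are given here as log2 differences, WB311 minus WB-F344. Among the members this held for Tjp1 (-0.46). Of the other junction genes it held for Cdh3 (0.68, not called after cyclic loess at an adjusted p of 0.0651), Ctnna1 (-0.32), Jam3 (-0.48), Cgn (0.71), Cgnl1 (0.77), Magi3 (1.22), Dsp (0.68) and Pkp2 (0.72). Cdh3 and Cgn were under 100 in WB-F344 with either treatment, so that their response there is not well measured. Of the factors it held for Tcf3 (0.67), Prrx2 (0.73) and Klf5 (0.66). Of the epithelial and mesenchymal products it held for Krt7 (1.07, with WB311 under 100 with vehicle), S100a4 (0.36), Col1a2 (0.45), Col3a1 (1.08) and Sparc (0.42, not called after cyclic loess at an adjusted p of 0.0549), and of the leukocyte markers for Cd14 (-0.77). Of the list genes, 14 had a higher change in WB311 as reported, and 6 without WB311 rapamycin plate 3. Which genes lost their calls without an array is not given here. With 3 plates per group, no plate was tested as an outlier.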

How the results depend on the processing

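Of 37 member results tested, 18 were called, of which 12 kept their call in each of the alternative settings run for them and 6 lost it in at least 1. Of the 19 not called, 9 gained a call in at least 1 setting and 5 changed sign in at least 1. No called value changed sign. The cause of these changes was not tested. In WB-F344 the count of member probe sets called with rapamycin was 3, and 1 with unequal variances in the methods' t-test, 5 with the fold limit applied before the adjustment and 5 without the plates numbered 2. In WB311 it was 2, and 1 with no filter, 1 after cyclic loess and 0 with unequal variances in the methods' t-test, where only 2 probe sets of the whole table were called higher and 3 lower. For the difference of the effects it was 1, and 3 with the fold limit applied first and 2 without the plates numbered 2. Without each array in turn the counts were 2 to 4, 1 to 2 and 1 to 1 in these comparisons, 4 to 6 between the lines with vehicle and 6 to 7 with rapamycin.

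With plate numbers as a replicate block within lines, the count in WB-F344 was 5 and that for the difference of the effects 3, through Ocln and Snai1, and 4 member calls changed in all. A block over both lines changed 0 member calls, and the block within lines changed no other.

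Over the whole table, the settings gave 92 to 1574 probe sets higher and 162 to 2561 lower for rapamycin in WB-F344, 2 to 807 and 3 to 512 in WB311, 2324 to 5002 and 2507 to 4930 between the lines with vehicle, and 660 to 2224 and 311 to 1005 for the difference of the effects. The share of calls that were lower for the difference of the effects was 31.2% as deposited and 45% after cyclic loess. List genes called higher and lower ranged from 2 to 8 and 0 to 16 in WB-F344, 0 to 9 and 0 to 2 in WB311, and 6 to 20 and 1 to 4 for the difference of the effects. Of 139 calls of list genes, members included, cyclic loess ended 8 and median centring 3, with no change of sign. Signals under 100 limit what can be said of Cdh1, Cldn1, Epcam and Twist1.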
